A study of Mus musculus with 2 samples.

Results

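The clustered replication-dependent histone genes of the mouse were read in RNA from newborn liver. They were taken by name: all protein-coding genes whose symbol begins with Hist1h, Hist2h, Hist3h or Hist4. This gave 64 genes of the 69691 features listed in each table, 69594 of them endogenous and 21474 protein-coding. The annotation holds 67 such symbols, and Hist2h2bb, Hist1h2bm and Hist1h2bh have no row and were not analysed here. By class there were 6 linker histone H1 genes, 18 H2A, 15 H2B, 12 H3 and 13 H4 genes.

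Histones are the proteins around which nuclear DNA is wound: H2A, H2B, H3 and H4 build the nucleosome core, and H1 binds the DNA where it enters and leaves. Cells need new core histones whenever they copy their genome, and the clustered genes supply them in S phase, while variant histones encoded elsewhere are made throughout the cell cycle. The mRNAs of the clustered genes have no introns in most cases and end in a conserved stem-loop in place of a poly(A) tail; this loop is bound by SLBP, the stem-loop binding protein. In newborn liver, growing hepatocytes and resident blood-forming cells both divide.

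The samples were 2 RNA-seq libraries of liver tissue from B6NCrl mice on postnatal day 0, a single liver from pup 1 (replicate 1) and a single liver from pup 3 (replicate 2). Both form 1 group with no treatment, so no contrast between conditions exists and no test was made. Each library was made by a SmartSeq protocol with 13 pg of total RNA (molecules above 200 nt) as input, or 1 cell-equivalent, and spike-in RNAs were added. Both pups carry the same donor entry in the labels, so animal and technical spread cannot be told apart. The sources used here do not give the primer of cDNA synthesis, so how fully mRNAs without a poly(A) tail were captured is not known. Because tissue RNA was measured, fewer cells of a type and less RNA per cell cannot be told apart.

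Levels are in TPM (a share of transcripts corrected for transcript length), rescaled to a sum of 1000000 after the spike-ins were removed. Errors are SDs over the 2 libraries (n = 2 throughout), and a ratio of pup 3 to pup 1 describes these libraries only. Total expected counts were 56959836 in pup 1 and 35973980 in pup 3. All 9 hepatocyte markers were at 1 TPM or more in both libraries (summed 165456 and 131619 TPM in pup 1 and pup 3), and 8 of 11 erythroid, 8 of 10 leukocyte and 3 of 5 megakaryocyte markers were too. Of the leukocyte markers Ptprc and Cd3e had no counts in either library, and of the erythroid markers Gata1 had none. None of 8 testis germ cell markers had a count.

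The clustered histone genes together held 1773 TPM in pup 1 and 2810 TPM in pup 3, which is 0.177% and 0.281% of all endogenous TPM (0.229 ± 0.0733%). Of endogenous counts they held 0.0677% in pup 1 (95% Wilson interval 0.0670 to 0.0684%) and 0.129% in pup 3 (0.127 to 0.130%). These intervals cover counting error only, since PCR copies of a molecule are not told apart. The most abundant member was Hist1h2ap, an H2A gene that held 29.6% of the histone TPM in pup 1 and 60.3% in pup 3. Without it the other 63 genes summed to 1247 TPM in pup 1 and 1116 TPM in pup 3 (0.118 ± 0.00931% of endogenous TPM), slightly lower in pup 3. By counts these 63 genes held 0.0523% in pup 1 and 0.0752% in pup 3, so the direction without Hist1h2ap depends on the unit.

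Most clustered histone genes were not detected in either library. At a threshold of 1 TPM, 13 genes (20.3%) were detected in both libraries, beside 14.9% of all protein-coding genes. A further 8 genes were detected in pup 1 only, beside 9.21% of protein-coding genes, and 7 in pup 3 only, beside 8.06%. The remaining 36 genes (56.2%) reached 1 TPM in neither library, beside 67.8% of protein-coding genes, and the highest level among them was 0.899 TPM. Of these 36, 23 genes were assigned no counts. By counting error alone this allows 0.0258 to 0.252 TPM in pup 1 and 0.0377 to 0.367 TPM in pup 3, depending on the gene's length (3 counts per library). For near-identical copies, whose reads are divided by estimation, the limit is wider: the deposited upper credibility bound passed 1 TPM in at least 1 library for Hist1h2ad, Hist1h2ai, Hist1h2ao and Hist1h3h, with the highest at 1.96 TPM (pup 1) and 3.61 TPM (pup 3). The 13 genes detected in both libraries held 94.5% of histone TPM in pup 1 and 95.3% in pup 3.

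**Figure D1:**
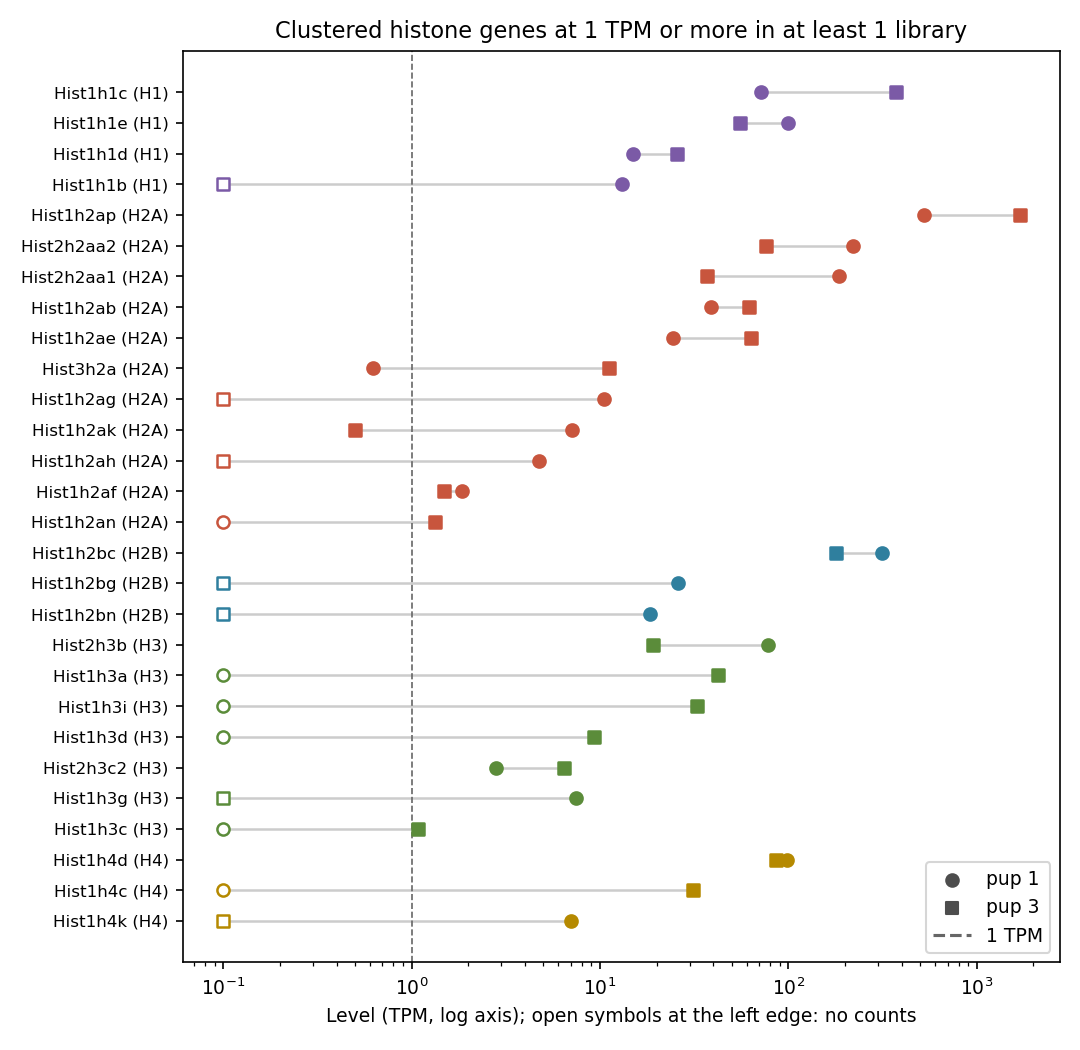
Level of each clustered histone gene that reached 1 TPM in at least 1 library (x axis, TPM on a log axis), grouped by class, with circles for pup 1 and squares for pup 3; open symbols at the left edge had no counts, and the dashed line marks 1 TPM. Hist1h2ap stands highest in both libraries at 526 and 1694 TPM, and the 2 values of Hist1h4d, 98.3 and 85.9 TPM, lie close together.

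Among the 28 clustered histone genes whose expected count averaged 10 or more, 6 were at least 4-fold higher in pup 3 on the log2(TPM + 1) scale, beside 25.9% of protein-coding genes, and 9 were at least 4-fold higher in pup 1, beside 27.3%. The median log2 ratio of pup 3 to pup 1 over the 28 was -0.61, with 11 genes higher in pup 3 and 17 higher in pup 1, beside -0.05 over 7301 protein-coding genes. Over the 12 of them that had 100 or more expected counts in each library, the median was 0.23. A gene that passed the filter through 1 library alone had to differ, so these counts carry no weight of their own. The 13 genes detected in both libraries had log2 ratios from -2.29 to 2.37 with a median of -0.19. None of the 64 genes had 1000 or more counts in 1 library and under 10 in the other.

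The classes did not stand at equal levels, although the nucleosome core takes its 4 core histones in equal numbers. H2A led, at 1021 TPM (pup 1) and 1948 TPM (pup 3), or 63.5 ± 8.31% of histone TPM. H1 followed with 199 and 454 TPM (13.7 ± 3.48%), and H2B with 359 and 180 TPM (13.3 ± 9.81%). H4 was at 105 and 117 TPM (5.06 ± 1.26%) and H3 at 88.1 and 111 TPM (4.45 ± 0.727%). H2A was highest in both libraries. In pup 3 this rested on Hist1h2ap, which held 1694 of the 1948 TPM. The other H2A genes together lay below H1 there, while in pup 1 they lay above each other class. H1 and H2B changed places between the libraries, with H2B above H1 in pup 1 and below it in pup 3. H3 and H4 were lowest in both, and their means of 99.4 TPM (H3, SD 15.99) and 111 TPM (H4, SD 8.30) differed by less than the SD of H3. H2A exceeded H3 11.6-fold in pup 1 and 17.6-fold in pup 3, and it exceeded H2B 2.84-fold and 10.8-fold. The 3 genes without a row are all H2B genes, so the H2B sum lacks them. By expected counts, which are not corrected for length, H1 held 29.6% of the histone total and H4 2.82%.

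**Figure D2:**
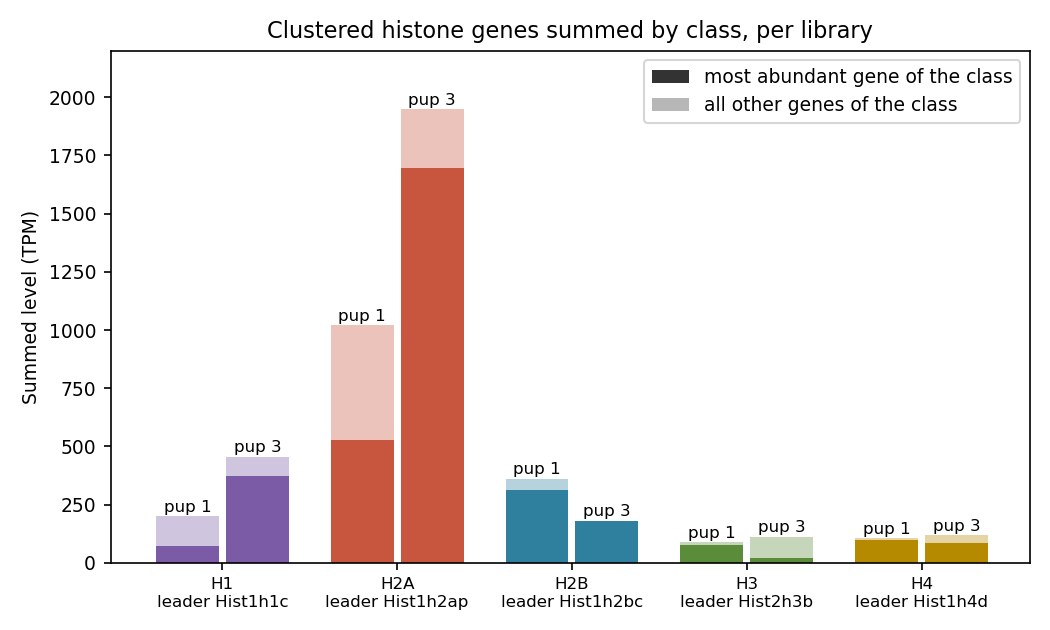
Summed TPM of the clustered histone genes of each class (y axis, linear from 0), with 1 bar per library; the dark part is the class's most abundant gene by mean and the pale part all its other genes. H2A stands above every other class in both pups. Hist2h3b makes up 88.3% of the H3 bar in pup 1 and 17.2% in pup 3, and Hist1h1c 35.8% of the H1 bar in pup 1.

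In each class 1 gene supplied most of the sum in at least 1 library. Hist1h2ap held 51.5% of H2A in pup 1 and 87.0% in pup 3. Hist1h2bc held 87.1% and 99.9% of H2B, and Hist1h4d held 93.2% and 73.3% of H4. Hist1h1c held 35.8% of H1 in pup 1 and 82.2% in pup 3. The 5 most abundant genes together held 75.9% of histone TPM in pup 1 and 85.7% in pup 3, and the 10 most abundant held 93.5% and 94.97%.

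Hist1h2ap (newer name H2ac24), the leading H2A gene, lies on chromosome 13 at 21833026 to 21833507 on the minus strand of GRCm38. It had 8405 expected counts and 526 TPM in pup 1, and 18586 counts and 1694 TPM in pup 3. It was the most abundant clustered histone gene in both libraries and 3.22-fold higher in pup 3 (1110 ± 826 TPM). Its coding region is the same base for base as that of Hist1h2ao on the same chromosome (21810465 to 21810944), which was listed at 0 in both libraries. The start of the coding region of the pair is shown beside that of Hist1h2ab, another gene of the same protein, with capitals where a base differs from Hist1h2ap:

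Hist1h2ap: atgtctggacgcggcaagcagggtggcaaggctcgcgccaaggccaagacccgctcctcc

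Hist1h2ao: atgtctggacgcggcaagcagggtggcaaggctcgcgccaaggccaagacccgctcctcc

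Hist1h2ab: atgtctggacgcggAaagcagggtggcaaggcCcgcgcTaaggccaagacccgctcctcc

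Hist1h2ab differs from Hist1h2ap at 3 of these 60 bases, and Hist1h2ao at 0. The deposited upper credibility bound for Hist1h2ao was 1.96 TPM in pup 1 and 3.61 TPM in pup 3 after rescaling. The 2 gene models share 353 of the 383 windows of 100 bases in Hist1h2ap, and how the reads divide between these genes was not tested. Their levels are therefore given as 1 sum, which here equals that of Hist1h2ap.

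Hist2h2aa1 and Hist2h2aa2, the H2A pair of the Hist2 cluster on chromosome 3, encode 1 protein and have the same coding region. Hist2h2aa2 (96239749 to 96240276, minus strand) had 3953 counts and 221 TPM in pup 1 and 937 counts and 76.2 TPM in pup 3. Hist2h2aa1 (96245497 to 96246082, plus strand) had 3786 counts and 186 TPM in pup 1 and 518 counts and 37.1 TPM in pup 3. Both were higher in pup 1, by 2.90-fold and 5.01-fold, the opposite of Hist1h2ap. Every 100-base window of Hist2h2aa2 occurs in another listed gene, so the split between the pair is uncertain, and their sum of 407 TPM in pup 1 and 113 TPM in pup 3 is the safer value. The first 60 coding bases, which the pair share in full, read:

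Hist2h2aa1: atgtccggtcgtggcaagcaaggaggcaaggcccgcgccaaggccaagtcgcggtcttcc

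Hist2h2aa2: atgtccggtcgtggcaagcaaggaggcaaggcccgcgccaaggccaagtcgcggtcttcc

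Of the other H2A genes, Hist1h2ab stood at 38.7 TPM in pup 1 and 61.8 TPM in pup 3 (50.3 ± 16.3). Hist1h2ae stood at 24.5 and 63.4 TPM (44.0 ± 27.5). Hist1h2af was low in both, at 1.84 and 1.49 TPM. These levels do not set Hist1h2ab and Hist1h2ae apart from each other, since their means differ by less than either SD. In pup 1 only, Hist1h2ag reached 10.5 TPM, Hist1h2ak 7.13 TPM (0.498 TPM in pup 3) and Hist1h2ah 4.73 TPM. In pup 3 only, Hist3h2a reached 11.2 TPM (0.621 TPM in pup 1) and Hist1h2an 1.32 TPM. The remaining 7 H2A genes stayed under 1 TPM. They include Hist1h2aa, a gene known from testis, which had no counts.

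H2B rested on Hist1h2bc (H2bc4; chromosome 13, 23684199 to 23692908, plus strand). It had 8319 counts and 313 TPM in pup 1, and 3276 counts and 180 TPM in pup 3 (246 ± 94.3 TPM). It was the only one of 15 H2B genes detected in both libraries, and it was 1.74-fold higher in pup 1. Hist1h2bg, which encodes the same protein as Hist1h2bc and Hist1h2be, reached 25.8 TPM in pup 1 and had no counts in pup 3. Hist1h2bn reached 18.3 TPM in pup 1, also with no counts in pup 3. Pup 3 thus had a single H2B gene above the threshold. The next gene by mean, Hist1h2br, was at 0.899 TPM in pup 1 and had no counts in pup 3. Coding regions of Hist1h2bc and Hist1h2bg differ at 5 bases, none of which changes a residue. The testis gene Hist1h2ba had no counts in either library.

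The H1 genes encode proteins that differ from one another, so their reads are easier to place than those of the core histones. Hist1h1c (H1f2; chromosome 13, 23738808 to 23740367, plus strand) had 4351 counts and 71.3 TPM in pup 1, and 15608 counts and 373 TPM in pup 3 (222 ± 213 TPM). It was 5.23-fold higher in pup 3, the largest ratio among the 13 genes detected in both libraries. Only 5.07% of its 100-base windows occur in another gene. Hist1h1e (H1f4) moved the other way, at 99.6 TPM in pup 1 and 55.1 TPM in pup 3. Hist1h1d (H1f3) stood at 14.9 and 25.8 TPM. In pup 1 the order was Hist1h1e, Hist1h1c, Hist1h1d and Hist1h1b, and in pup 3 Hist1h1c led. Hist1h1b (H1f5) was found in pup 1 only, with 353 counts and 13.1 TPM against no counts in pup 3, and none of its windows occurs elsewhere. Hist1h1a had 3 counts in pup 1. The testis linker histone gene Hist1h1t had none.

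The 12 H3 genes encode 2 proteins. A set of 4 genes (Hist1h3a, Hist1h3g, Hist1h3h and Hist1h3i), which encode the form known as H3.1, summed to 7.45 TPM in pup 1 and 74.8 TPM in pup 3. The other 8 genes, which encode H3.2, summed to 80.6 TPM in pup 1 and 35.9 TPM in pup 3. Thus, by levels as listed, pup 1 had more of the larger set and pup 3 more of the smaller. Within the larger set, Hist2h3b (H3c13; chromosome 3, 96268654 to 96269141) stood at 77.8 TPM in pup 1 and 19.1 TPM in pup 3. Its neighbour Hist2h3c2 was at 2.79 and 6.44 TPM, and Hist1h3d had no counts in pup 1 and 9.24 TPM in pup 3. Within the smaller set, Hist1h3a had no counts in pup 1 and 525 counts (42.1 TPM) in pup 3. The level in pup 3 is 255-fold above what 3 counts would give in pup 1. That limit covers counting error only, and mRNA missed at an input of 1 cell-equivalent cannot be told from mRNA that was absent. Hist1h3i likewise had no counts in pup 1 and 32.7 TPM in pup 3. Hist1h3g stood at 7.45 TPM in pup 1 but had no counts in pup 3, so no gene of the H3.1 set was detected in both. Of the windows of Hist2h3b 77.1% occur in another gene, of Hist1h3i 68.6% and of Hist1h3a 32.2%. Hist2h3b shares most with Gm20634, a noncoding transcript, and with Hist2h3c1 and Hist2h3c2 of its own set. Hist1h3i and Hist1h3a share windows with Hist1h3h of their own set and with Hist1h3b and Hist1h3d of the larger set. How the reads divide between these genes, and so between the sets, was not tested.

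All 13 H4 genes encode 1 protein of 103 residues, and most of their summed level came from Hist1h4d (H4c4; chromosome 13, 23581598 to 23582735, plus strand). Hist1h4d had 1207 counts and 98.3 TPM in pup 1, and 724 counts and 85.9 TPM in pup 3 (92.1 ± 8.78 TPM). Among the leading genes of the 5 classes it had the smallest spread. Hist1h4c had no counts in pup 1 and 265 counts (31.3 TPM) in pup 3. Hist1h4k had 63 counts (7.03 TPM) in pup 1 and none in pup 3. Thus each library had 1 H4 gene at 1 TPM or more beside Hist1h4d, and not the same one. Hist1h4d differs from Hist1h4k at 19 and from Hist1h4c at 23 of 309 coding bases, with no change of residue, and in the M21 models it shares no 100-base window with either. The models of Hist1h4d and Hist1h4c changed after M4, the annotation that was quantified. Hist1h4k shares 64.3% of its windows with other H4 genes, Hist1h4a and Hist1h4b among them, so its reads are uncertain. Capitals mark the bases that differ from Hist1h4d in the first 60 coding bases, 12 in each of the other two:

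Hist1h4d: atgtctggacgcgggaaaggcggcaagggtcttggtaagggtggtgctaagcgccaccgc

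Hist1h4c: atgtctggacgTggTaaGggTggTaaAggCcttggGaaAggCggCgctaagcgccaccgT

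Hist1h4k: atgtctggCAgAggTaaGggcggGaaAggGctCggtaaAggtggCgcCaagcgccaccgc

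The near-identical copies set how far a level can be given to a gene. Within H2A the median identity of coding regions of equal length was 96.7%, within H2B 97.4%, within H3 97.2% and within H4 93.9%, while no pair of H1 coding regions had equal length. The 18 H2A genes encode 9 proteins, and 9 of the genes encode the same one, which together held 600 TPM in pup 1 and 1821 TPM in pup 3. The 15 H2B genes also encode 9 proteins, when the longest coding region of each gene is taken. Hist1h2bp, Hist1h2bq and Hist1h2br each also have a shorter coding region of 378 bases, whose proteins were not compared. For the 44 genes whose exon model has the same length in GENCODE M4 and M21, a median of 52.3% of 100-base windows occur in another gene. Of these 44, 23 share at least 50% of their windows and 4 share none. These values count overlap with other genes at the same place as well as copies. Windows of Hist2h2aa1, Hist2h2aa2, Hist2h2ac, Hist2h3b, Hist2h3c1 and Hist2h3c2 also occur in Gm20634, a noncoding transcript over the same ground. It was listed at 0 in pup 1 and at 0.0742 TPM in pup 3. All 1721 windows of Hist2h3c1 occur in another gene, but 567 of them in its copy Hist2h3c2. Hist3h2a shares 29.8% of its windows, with the overlapping gene Trim17 only, which had no counts.

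**Figure D3:**
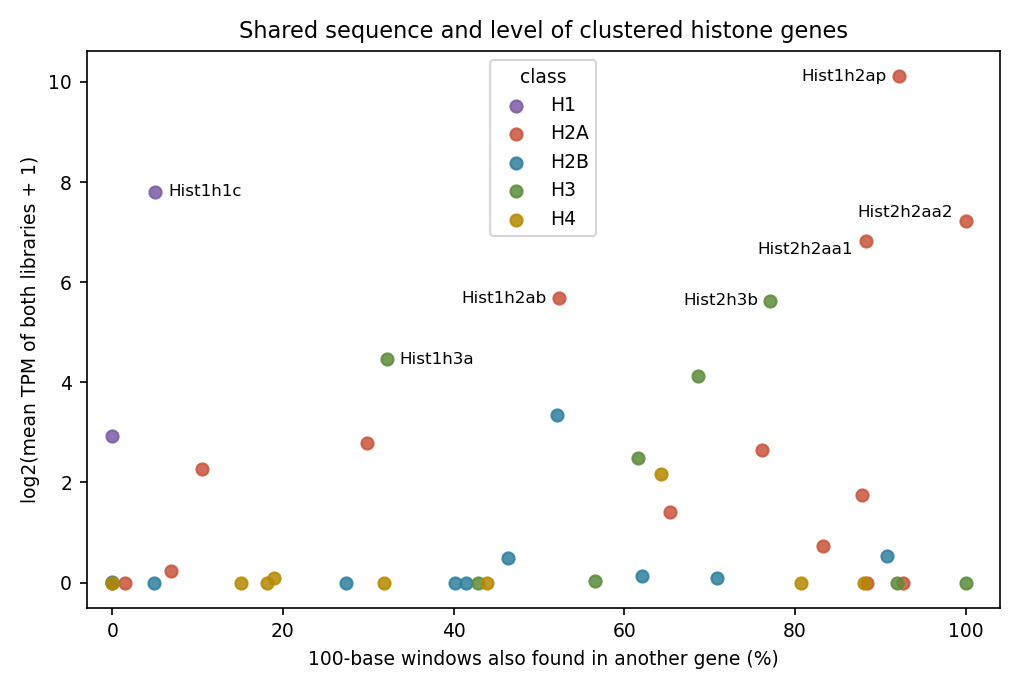
Share of 100-base windows that occur in another listed gene (x axis, percent) against the mean level of both libraries (y axis, log2 of TPM + 1) for the 44 clustered histone genes with an unchanged model; colours give the class. Hist1h2ap (92.2% shared) and Hist2h2aa2 (100%) stand high on the right, while Hist1h1c stands high at 5.07%.

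The stem-loop that ends these mRNAs was searched in the annotated transcripts as 6 paired bases on each side of a 4-base loop, on the sense strand only, with the letters GGNNNTNNTNANNNCC. It was found in the M21 models of 44 of the 64 genes. By transcript, 45 of 69 histone models hold it after the coding region (65.2%), and 0.927% of 58665 other coding transcripts hold a match anywhere. In the last 100 bases it was present in 31.9% of the histone models and in 0.0205% of the others. The forms are shown because they divide by class, with the paired stem in capitals and the loop in lower case:

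Most common form (24 genes of H1, H2A, H2B and H3): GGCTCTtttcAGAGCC

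Next form outside H4 (6 genes of H1, H2B and H3): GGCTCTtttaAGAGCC

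Most common H4 form (7 genes): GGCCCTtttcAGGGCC

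H4 form with another loop (2 genes): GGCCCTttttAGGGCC

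H4 form with another loop (1 gene): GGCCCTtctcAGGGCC

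H4 form with another stem (2 genes): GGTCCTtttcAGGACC

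The 12 H4 genes with a loop carry a stem that differs from that of the other classes: the 32 genes of H1, H2A, H2B and H3 with a loop share 1 stem, the one in the first 2 lines, which 1 H2A and 1 H3 gene carry with a loop not shown. The leading genes differ in what follows the loop in their model. The Hist1h2ap model ends 3 bases after the loop with no AATAAA or ATTAAA signal. The Hist1h1c model goes on for 840 bases past the loop and holds such a signal 26 bases from its end. The M21 model of Hist1h4d goes on for 770 bases past the loop. The models of Hist1h2bc and Hist2h3b, which lead H2B and H3 by mean, hold no such loop. The Hist2h3b model ends 40 bases after the coding region, so a loop past that end could not be found. The Hist1h2bc model searched has 1156 bases, against 736 in the one quantified. Whether the mRNAs of these genes carry a loop was not tested.

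Among genes with the same model in both annotations, the 17 with a loop and at most 60 bases after it summed to 983 TPM (pup 1) and 1912 TPM (pup 3), and 4 of them were detected in both libraries. The 10 with a loop and over 60 bases after it summed to 74.9 TPM and 391 TPM, with 2 detected in both. The 20 with a model lacking the loop summed to 131 and 55.2 TPM. Hist1h2bp has a model of each kind and is counted in both. For 14 of the 20 the model ends within 30 bases of the coding region. Genes that end at the loop thus held most of the histone TPM in this comparison, most of it Hist1h2ap and the Hist2h2aa1 and Hist2h2aa2 pair. The 20 genes with a changed model summed to 584 TPM in pup 1 and 452 TPM in pup 3. They include Hist1h2bc, Hist1h1e and Hist1h4d, and only Hist1h2be and Hist1h2bq also have an unchanged model that entered the comparison. Which end the sequenced molecules had cannot be read from gene sums and was not tested.

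Many H2A and H2B genes lie head to head and share the stretch between their starts. Among the 64 genes 12 such pairs were found, with 176 to 306 bases between starts, and their partners did not stand at like levels. The 3 H2B genes without a row were not searched as partners. In pup 1 both partners were detected in 2 pairs, the H2A gene alone in 3, the H2B gene alone in 1, and neither in 6. In pup 3 both partners were detected in 0 pairs, H2A alone in 3, H2B alone in 1, and neither in 8. Hist1h2ap at 526 and 1694 TPM faces Hist1h2br at 0.899 TPM and no counts. Hist1h2bc at 313 and 180 TPM faces Hist1h2ac at 0.139 and 0.805 TPM. The nearest to a matched pair was Hist1h2ae at 24.5 TPM and Hist1h2bg at 25.8 TPM in pup 1, but in pup 3 Hist1h2ae was at 63.4 TPM and Hist1h2bg had no counts.

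**Figure D4:**
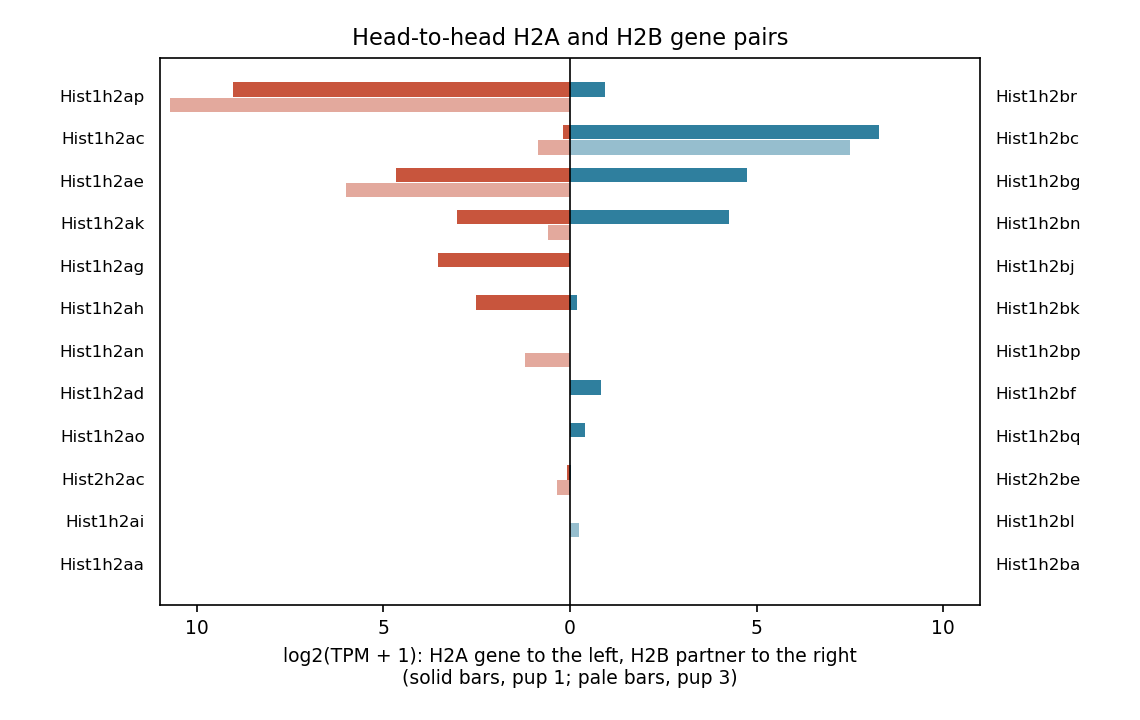
Level of each partner of the 12 head-to-head pairs (x axis, log2 of TPM + 1, H2A gene to the left and H2B partner to the right), with solid bars for pup 1 and pale bars for pup 3. The top pair is high on the H2A side only (Hist1h2ap) and the next on the H2B side only (Hist1h2bc). Levels are as listed, and how reads divide between copies was not tested.

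The stretches between these unequal partners are shown with the promoter of Hist1h1c, from the RefSeq promoters of GRCm38.p6, 5′ to 3′ on the strand of the first named gene. Capitals mark matches on either strand to the CCAAT box (opposite strand ATTGG), to a TATA box searched as TATAAA (on the opposite strand, TTTATA) and to the octamer known from H2B promoters, ATTTGCAT, whose opposite strand reads ATGCAAAT.

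Hist1h2ac and Hist1h2bc (chr13:23683960-23684198, minus strand, 239 bases): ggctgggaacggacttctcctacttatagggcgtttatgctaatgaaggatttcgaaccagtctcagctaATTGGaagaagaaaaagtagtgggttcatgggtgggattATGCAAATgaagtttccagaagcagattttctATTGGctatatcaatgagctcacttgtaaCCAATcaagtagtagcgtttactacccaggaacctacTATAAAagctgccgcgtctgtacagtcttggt

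Hist1h2ap (chr13:21833508-21833725, minus strand, 218 bases): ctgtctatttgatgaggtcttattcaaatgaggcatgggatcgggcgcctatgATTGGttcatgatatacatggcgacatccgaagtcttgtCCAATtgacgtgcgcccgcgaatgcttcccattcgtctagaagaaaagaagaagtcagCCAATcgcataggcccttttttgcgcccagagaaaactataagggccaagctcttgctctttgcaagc

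Hist1h1c (chr13:23738557-23738806, plus strand, 250 bases): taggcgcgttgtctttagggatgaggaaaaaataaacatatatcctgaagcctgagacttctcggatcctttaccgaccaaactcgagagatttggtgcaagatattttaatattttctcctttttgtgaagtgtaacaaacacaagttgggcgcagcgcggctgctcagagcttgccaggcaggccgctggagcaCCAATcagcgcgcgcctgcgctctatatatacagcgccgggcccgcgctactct

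The Hist1h2ac and Hist1h2bc stretch holds 3 CCAAT, 1 TATAAA and 1 ATTTGCAT, the Hist1h2ap stretch 3 CCAAT and the Hist1h1c promoter 1 CCAAT. Over the 250 bases before each start, both strands searched, 81.4% of the 59 histone promoters found in the RefSeq table held CCAAT, beside 33.8% of all 32817 promoters. TATAAA was held by 49.2% beside 12.4%, and ATTTGCAT by 20.3% beside 1.60%. The classes differed: CCAAT stood in all 6 H1, all 18 H2A and all 13 H2B promoters, in 8 of 10 H3 and in 3 of 12 H4 promoters, and ATTTGCAT stood in 7 H2A and 5 H2B promoters and in none of the other classes. Windows of head-to-head partners overlap, so their matches are counted for both genes. CCAAT was held by 11 of 12 promoters of genes detected in both libraries and by 24 of 33 of genes detected in neither. A match is a stretch of letters and not a measured binding site.

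By location, the Hist1 cluster on chromosome 13 (52 genes, 21715763 to 23934851) held 72.5% of histone TPM in pup 1 and 94.7% in pup 3. The Hist2 cluster on chromosome 3 (9 genes, 96219865 to 96269141) held 27.5% and 4.95%. The Hist2 genes detected in both libraries were Hist2h2aa1, Hist2h2aa2, Hist2h3b and Hist2h3c2, and all but Hist2h3c2 were higher in pup 1. On chromosome 11, Hist3h2a was detected in pup 3 and Hist3h2ba in neither library. Hist4h4, the single gene of its kind on chromosome 6, had no counts.

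Variant histones encoded outside the clusters summed to more than the clustered genes in each library, with another balance between classes. Of 14 variant genes, 9 were detected in both libraries and 1 in pup 1 only, and their sum was 2164 TPM in pup 1 and 2824 TPM in pup 3. The H3.3 genes H3f3b (662 and 934 TPM) and H3f3a (469 and 1033 TPM), which supply H3 outside S phase, led together with H2afz, the gene of H2A.Z (665 and 349 TPM). The H3 variants summed to 13.9 times the clustered H3 genes in pup 1 and 19.6 times in pup 3. This and the ratios below are of measured TPM. Whether mRNAs that end in the stem-loop were captured as fully as mRNAs with a poly(A) tail was not tested. The H2A variants summed to 0.830 and 0.289 times the clustered H2A genes, and the H1 variants to 0.446 and 0.201 times clustered H1. With variants added, H2A stood at 1.42 times H3 in pup 1 and 1.10 times in pup 3, against 11.6 and 17.6 among clustered genes alone. H2B and H4 have no variant in the list, so their sums stayed as they were.

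The machinery around the clustered genes was detected unevenly. Of 25 S-phase DNA replication genes, 17 were detected in both libraries, 6 in pup 1 only and 0 in pup 3 only. Rrm2, a subunit of the enzyme that makes deoxynucleotides, stood at 287 TPM in pup 1 and 118 TPM in pup 3. Pcna, the sliding clamp of DNA polymerases, stood at 211 and 95.7 TPM, and Fen1, which trims Okazaki fragments, at 202 and 38.8 TPM. The list's sum was 2016 TPM in pup 1 and 1223 TPM in pup 3, lower in pup 3. The clustered histone sum was higher in pup 3 with Hist1h2ap (1773 and 2810 TPM) and lower without it (1247 and 1116 TPM).

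Of 20 histone chaperone and deposition genes, 9 were detected in both libraries, 4 in pup 1 only and 3 in pup 3 only. Rbbp7 (297 and 87.7 TPM) and Rbbp4 (120 and 113 TPM), histone-binding subunits of several chromatin complexes, led, followed by Nasp, the carrier of soluble H3 and H4 (94.6 and 42.4 TPM). A list of 17 genes covered histone mRNA transcription and 3′ end processing, with general cleavage and polyadenylation factors among them. Of the 17, 2 were detected in both libraries, 6 in pup 1 only and 3 in pup 3 only. Fip1l1, a subunit of the cleavage and polyadenylation factor, stood at 36.7 and 30.7 TPM. Lsm10, a subunit of the U7 particle that cuts histone mRNA after the loop, was at 64.1 TPM in pup 1 with no counts in pup 3, and Ncbp1, a cap-binding protein, at 48.7 TPM with no counts. Slbp, whose protein binds the stem-loop, had 2623 counts (40.8 TPM) in pup 1 and none in pup 3. Npat, the coactivator of clustered histone transcription, had no counts in either library. Slbp and Npat were singled out after their values were seen.

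**Figure D5:**
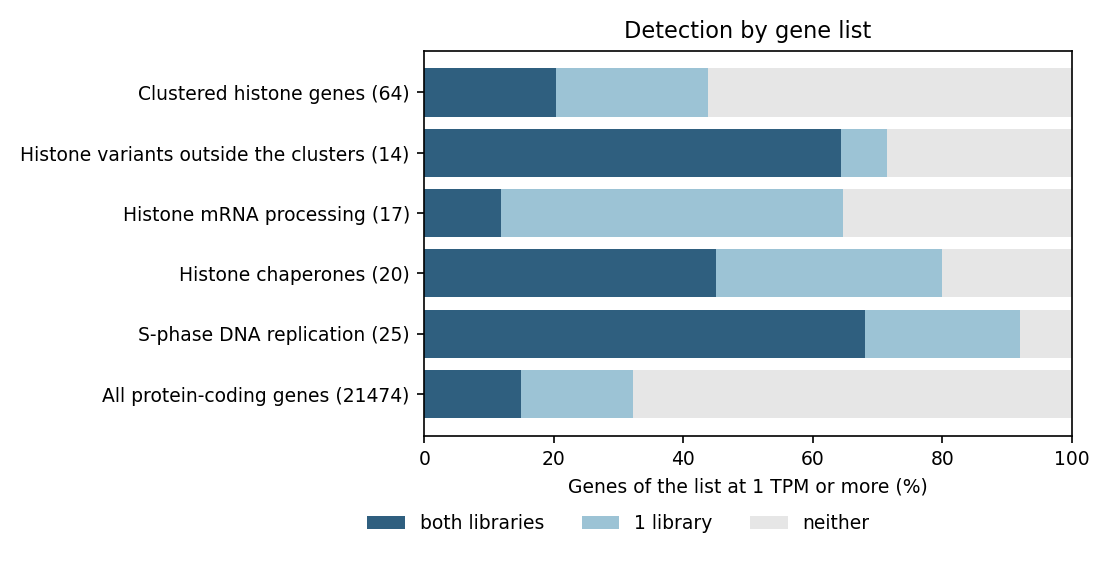
Percent of the genes of each list (x axis; number of genes in brackets) at 1 TPM or more in both libraries (dark), in 1 library (mid blue) and in neither (grey). The clustered histone genes, with 13 of 64 in both, lie nearer to all protein-coding genes (14.9%) than to the S-phase genes (17 of 25 in both).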

How the data were processed

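RNA was measured in 2 libraries of newborn mouse liver. Per the deposited notes, values refer to mm10 with GENCODE M4 genes; the sources used here name neither aligner nor quantification program nor strand setting, though the columns carry RSEM's names. The authors deposited expected counts, which are estimates that divide reads of several origins and need not be whole. The authors deposited TPM values that sum to 1000000 with spike-ins included. The deposited posterior mean TPM and its credibility bounds were treated as a score, and the deposited isoform percent gives a transcript's share of its gene. Because copies share reads by estimation, a split between near-identical genes is uncertain.

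Names, coordinates and models came from GENCODE M21 on GRCm38, matched by identifier for 42462 of 43346 genes (98.0%), and promoters from RefSeq. Protein sequences were translated from the coding regions and only compared. The 97 spike-in rows, 3.76% and 3.28% of counts in pup 1 and pup 3, were removed and TPM rescaled. A gene was detected at 1 TPM. Log2 ratios and the 4-fold counts are on the log2(TPM + 1) scale, where differences of low genes come out too small. They cover genes whose expected count averaged 10 or more. Folds of single genes and ratios between class or variant sums are of TPM with nothing added. The 2 libraries differed far beyond sampling noise (chi-square per degree of freedom 783 over the 28 filtered members), so they are not 1 library deposited under both names. No test was made, since there is 1 group.

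The members and lists were chosen with earlier results of these data known. Genes named are those detected in both libraries, the 4 of highest mean in each class, those of 1000 or more counts in 1 library and under 10 in the other, sets of identical protein, and the 3 leading genes of each list; other genes were chosen after their values were seen. Pseudogenes with such names (3) were left out. Alternatives covered units, thresholds, filters, pseudocount, thinning, leaving out the top gene or a library, and scaling by spike-ins, and, on rounded expected counts, by DESeq2 size factors and by TMM factors of edgeR. The calculations were tested on simulated data. Tools were R 4.3.3 with DESeq2 1.42.0 and edgeR 4.0.16, and Python 3.11.15 with pandas 2.3.3, numpy 2.4.6, statsmodels 0.14.6, scipy 1.17.1 and matplotlib 3.10.9.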

Additional observations from a re-analysis of the deposited data

How the results depend on the processing

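No paired analysis was possible because both libraries belong to 1 group. Of 48 alternative values, 34 stayed within a set limit. For shares the limit was the SD of the 2 libraries, and for counts of genes a factor of 1.5. For the median ratio it was the size of that ratio divided by the square root of 2, which is not a spread. A share from 1 library alone lies within the SD by construction, so such values among the 34 carry no weight. By expected counts, which do not correct for length, the histone share was 0.0982% in place of 0.229%, H1 held 29.6% of the members, and H2A, H3 and H4 were 48.2%, 3.48% and 2.82%. Without Hist1h2ap the histone share was 0.118%. H1, H2A, H3 and H4 then held 28.3%, 31.2%, 8.49% and 9.48% of the other members, as means of the 2 libraries. In pup 3 alone, H1 lay above H2A without Hist1h2ap. The H2B share stayed within its spread both by expected counts and without Hist1h2ap. The median log2 ratio of the members was 0 with no filter and 0.23 over the 12 genes of 100 or more expected counts in each library, against -0.61, so its direction depends on the filter. Leaving out 1 library gave 20 to 21 detected genes in place of 13. That count asks for detection in 1 library only, so it could not fall and is no check on the 13. The histone share was then 0.177 to 0.281%. Class shares were 11.2 to 16.2% (H1), 57.6 to 69.3% (H2A), 6.40 to 20.3% (H2B), 3.94 to 4.97% (H3) and 4.17 to 5.95% (H4). Other thresholds gave 11 to 16 genes detected in both libraries. The factors alone amount to a log2 shift of -0.26 (TMM and DESeq2) or 0.20 (spike-in totals); with the pseudocount the members' median became -0.72 under TMM and DESeq2 factors and -0.49 under spike-in totals. A lower credibility bound of 1 TPM (12 genes in both) and the inclusion of the pseudogenes (0.229%) were chosen after seeing the data. With 2 libraries from 1 cell-equivalent each, a gene missing from 1 library cannot be told from a gene not expressed there.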
